A study of Mus musculus with 3 samples.

Results

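Of the 26832 genes with a symbol on the array, 92 were chosen by name as carriers of sugars, amino acids and monocarboxylates, and they were represented by 165 of the 56605 gene probes. The members are the genes named with the family prefixes Slc1, Slc2, Slc3, Slc5, Slc6, Slc7, Slc16, Slc36, Slc38 and Slc43, apart from 6 genes of these families (*Slc2a1*, *Slc7a1*, *Slc7a2*, *Slc7a11*, *Slc16a1* and *Slc16a3*) that the choice left out. The rule that picks them reads gene names alone. RAW macrophages, a mouse cell line, were given LPS (the TLR4 agonist of Gram-negative bacteria, 50 ng/mL) alone, or after *L. rhamnosus* CRL1505 or *L. plantarum* CRL1506 (50000000 cells/mL for 24 h, then washed off). These conditions are called LPS, CRL1505 + LPS and CRL1506 + LPS, and all of them contain LPS. Non-stimulated cells are not analysed here. The study's design gives 12 h of LPS and the sample descriptions give 3 h.

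Each condition was measured on 1 single-colour array, so there was no replicate check and no test, and every difference below compares single arrays. A slide and a scan were common to LPS and CRL1506 + LPS, while CRL1505 + LPS was alone on another slide, so that in every CRL1505 value strain and slide cannot be told apart. The RNA came from whole cultures, where a change in fewer cells and a smaller change in all of them cannot be told apart either. Probes of all 10 macrophage markers looked up on the array, among them *Adgre1*, *Cd68* and *Csf1r*, were well above background on every array. Of the markers of other cell types, 2 of 4 T cell and 2 of 4 B cell probes were also above background on each array, as were 0 to 3 of 5 fibroblast, 0 to 1 of 5 epithelial and 1 to 3 of 4 endothelial probes. The part of other cells in the values was not tested.

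Membrane carriers decide which nutrients a cell can take up, release or move out of its lysosomes. The Slc2 family moves hexoses by facilitated diffusion, the Slc16 family moves monocarboxylates such as lactate and also aromatic amino acids, and the Slc1, Slc6, Slc7, Slc36, Slc38 and Slc43 families move mainly amino acids and related osmolytes. LPS-activated macrophages are known for high use of glucose, glutamine, arginine and serine, and amino acids in the lysosome are sensed by the kinase complex mTORC1 through, among others, *Slc38a9*.

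The promoters of the members on which the results turn are given as the 250 bases before the annotated transcription start, from RefSeq on GRCm38.p6, read 5′ to 3′ on the strand of the gene. Capitals mark matches, on either strand, to the E-box CACGTG, which MYC and the TFEB family of lysosomal regulators can bind, or to the GAS element TTCNNNGAA, which STAT factors can bind. They are shown because *Slc36a1*, *Slc38a7*, *Slc1a4* and *Slc43a2* differed at least 2-fold with CRL1505 + LPS, and *Slc38a9* with CRL1506 + LPS.
Slc36a1, chr11:55204090-55204339, plus strand: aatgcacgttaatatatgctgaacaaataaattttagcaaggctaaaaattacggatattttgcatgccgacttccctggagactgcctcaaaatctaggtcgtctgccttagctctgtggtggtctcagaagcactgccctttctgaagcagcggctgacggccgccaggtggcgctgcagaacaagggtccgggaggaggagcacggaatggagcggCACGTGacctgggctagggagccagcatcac
Slc38a7, chr8:95853492-95853741, minus strand: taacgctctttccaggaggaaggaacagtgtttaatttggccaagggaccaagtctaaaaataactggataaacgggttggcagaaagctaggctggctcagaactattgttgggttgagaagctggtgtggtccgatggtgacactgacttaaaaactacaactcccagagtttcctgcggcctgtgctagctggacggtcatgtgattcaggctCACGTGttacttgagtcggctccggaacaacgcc
Slc1a4, chr11:20332714-20332963, minus strand: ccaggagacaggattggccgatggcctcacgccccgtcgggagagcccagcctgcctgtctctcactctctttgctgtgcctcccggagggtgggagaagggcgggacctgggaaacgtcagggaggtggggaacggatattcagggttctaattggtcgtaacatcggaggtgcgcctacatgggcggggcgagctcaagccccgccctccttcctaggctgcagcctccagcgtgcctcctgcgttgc
Slc43a2, chr11:75531444-75531693, plus strand, 1 of 2 listed starts: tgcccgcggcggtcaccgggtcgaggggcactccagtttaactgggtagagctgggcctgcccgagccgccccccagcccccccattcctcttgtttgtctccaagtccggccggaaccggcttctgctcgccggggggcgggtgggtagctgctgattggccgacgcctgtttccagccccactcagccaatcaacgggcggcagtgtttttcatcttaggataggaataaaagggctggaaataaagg
Slc38a9, chr13:112660516-112660765, plus strand: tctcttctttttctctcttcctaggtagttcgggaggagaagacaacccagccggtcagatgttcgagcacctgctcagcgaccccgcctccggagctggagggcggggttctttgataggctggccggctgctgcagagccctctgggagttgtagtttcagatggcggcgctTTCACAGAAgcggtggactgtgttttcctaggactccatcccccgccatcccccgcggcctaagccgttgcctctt
Of the listed lysosomal and endosomal carriers, *Slc2a6*, *Slc2a8*, *Slc36a4* and *Slc38a9* have no E-box in the window before the start. The E-box lies 31 bases before the start of *Slc36a1* and 34 bases before that of *Slc38a7*, both genes of lysosomal amino acid carriers. It occurred in 6.05% of the 27025 promoters of this length, in 11 of the 65 members with a listed promoter (16.9%), and in 3 of the 11 members that passed 2-fold in any comparison and have one, which include *Slc6a3* (197 bases before the start). The GAS element lies 76 bases before the start of *Slc38a9*, and it occurred in 7.18% of all promoters and 2 of the 65 members. The AP-1 site TGAGTCA (4.43% of all promoters, 4 of 65 members) and the C/EBP-ATF element TGATGNAA (3.53%, 2 of 65) matched none of the 11. These matches describe letters in the window and not binding. *Slc38a3*, *Slc2a4* and *Slc6a18* are named only.

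Levels are given as log2 of the background-subtracted signal relative to the 75th percentile of all gene spots of the same array, so that 0 is a gene brighter than most and a step of 1 is a 2-fold difference. Levels of different genes come from different probes and are not compared with each other. A probe counts as detected where the scanner software marked it well above background. By this mark, 49 members were detected with LPS, 39 with CRL1505 + LPS and 49 with CRL1506 + LPS, and 36 were detected on all arrays and 36 on none. Over all genes, 37.0% were detected on none, against 39.1% of the members. All 12 Slc7 members split evenly, with 6 detected on every array and 6 on none. The lysosomal carriers were detected throughout (6 of 6), while of the 5 high-affinity glutamate carriers *Slc1a2* and *Slc1a3* were among the 4 detected nowhere.

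**Figure D1:**
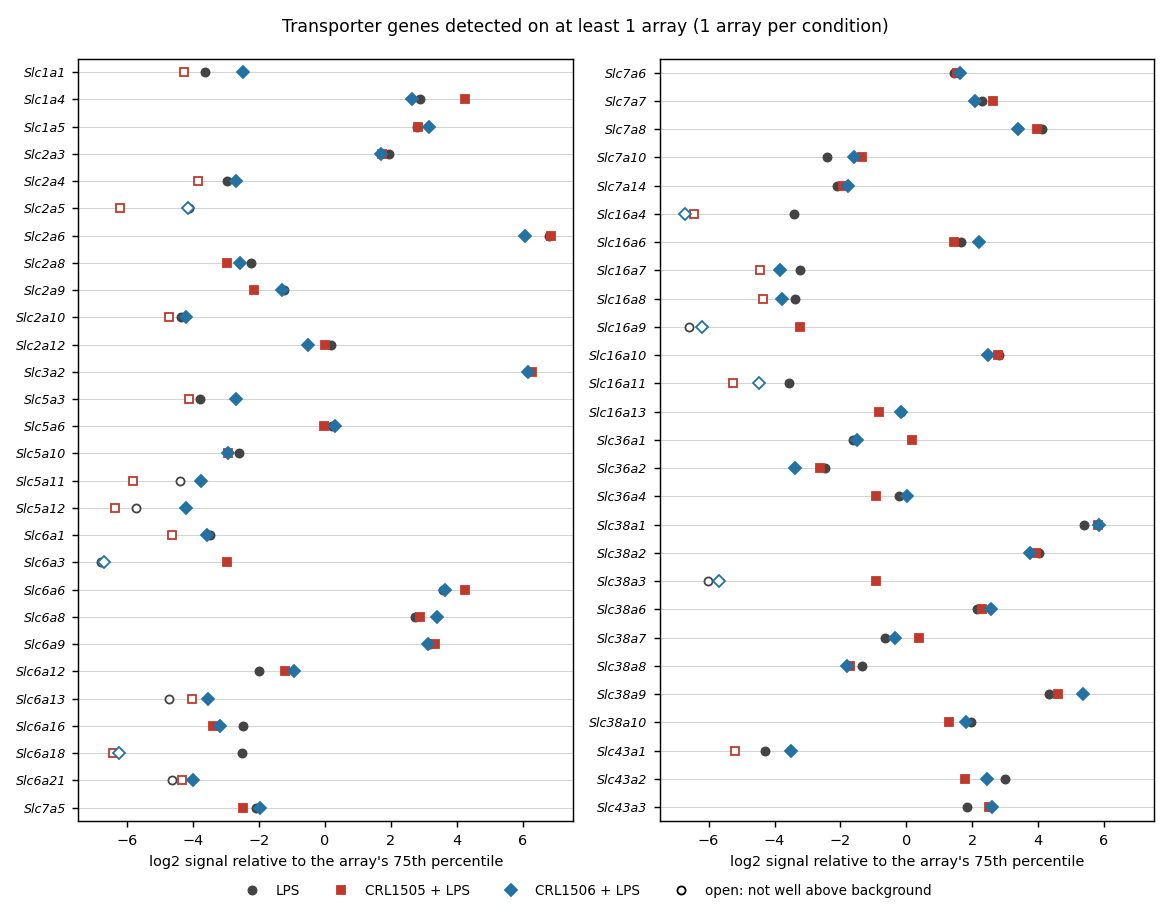
Log2 level (horizontal axis, relative to the 75th percentile of each array) of 55 members detected on at least 1 array, with 1 point for each of the 3 arrays and open symbols where the probe was not well above background. *Slc38a3* stands out, with -0.91 with CRL1505 + LPS against -6.03 and -5.69, both open.

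A member was counted as different at a ratio of at least 2-fold. Where only 1 of a pair of arrays detected the probe, the ratio is a lower bound, taken against the lowest detected signal of the other array, or the probe's own signal there if higher. With CRL1505 + LPS, 7 of 49 members that could be compared with LPS were at least 2-fold higher (14.3%), against 9.92% of all genes compared, and 2 were lower (4.08%), against 8.41% of all genes. With CRL1506 + LPS, 5 of 53 were higher (9.43%), against 5.67% of all genes, and 1 was lower (1.89%), against 3.52%. The other 40 and 47 members were not counted, and of these 9 and 7 were bounds under 2-fold, which do not limit the difference to that size. Over the members measured on both arrays the median log2 ratio was 0.00 with CRL1505 (36 members) and 0.07 with CRL1506 (45 members), beside 0.06 and -0.06 over all genes. The shares of members lay within a few genes of those of all genes, and what follows therefore describes single carriers. Both comparisons use the same LPS array, so an error in that array would enter both.

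Precision within an array was described in 2 ways. The error model of the scanner software gave a standard error of 0.20 to 0.28 for a measured log2 ratio with CRL1505 and of 0.20 to 0.43 with CRL1506. Different probes of the same gene gave log2 ratios with a median SD of 0.23 (CRL1505) and 0.21 (CRL1506). By that SD, 10 members lay above it, 11 below its negative and 15 within it with CRL1505, and 17, 15 and 13 with CRL1506. Neither figure covers the spread between cultures. The scaling between arrays also mattered. The median log2 ratio of all genes with CRL1505 was 0.06 after the 75th percentile shift, 0.35 after a shift to the median and -0.41 after scaling to spike-in probes, and the sign of the ratio changed under some scaling for 14 of the 36 named members compared with CRL1505 and for 7 of 33 with CRL1506. It changed for none of those past 2-fold.

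**Figure D2:**
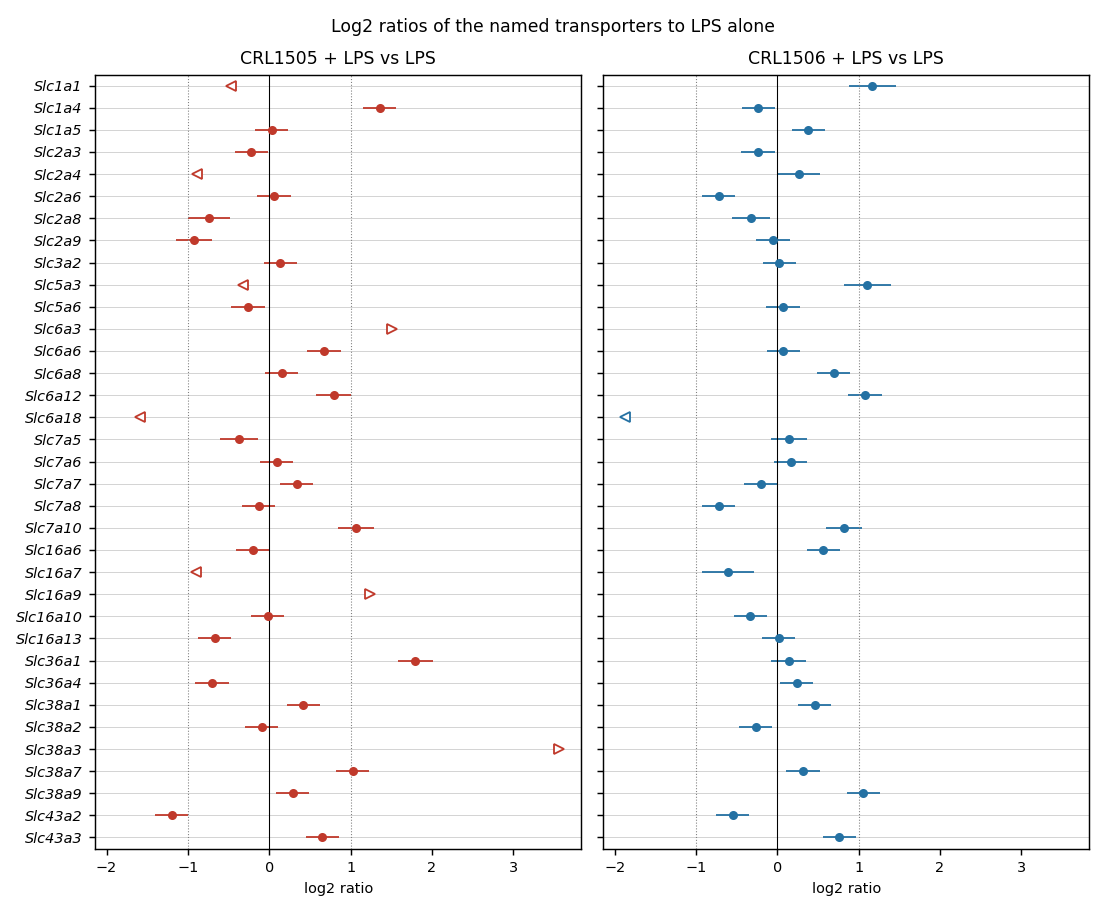
Log2 ratio to LPS (horizontal axis) of 35 named members that could be compared, with CRL1505 + LPS on the left and CRL1506 + LPS on the right. Bars are the standard error of the scanner software, open triangles are lower bounds, and dotted lines mark 2-fold. *Slc38a3* and *Slc36a1* reach the highest values on the left, and on the right *Slc1a1* lies at 1.17.

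In the list of carriers of glutamine and serine, *Slc38a3* and *Slc1a4* passed 2-fold against LPS, both with CRL1505. *Slc38a3* encodes a sodium-coupled carrier of glutamine, histidine and asparagine known mainly from liver, kidney and astrocytes. Its single probe (mm9 chr9:107553825-107553884) read -6.03 with LPS, -0.91 with CRL1505 + LPS and -5.69 with CRL1506 + LPS. Only the CRL1505 + LPS value was well above background, and it was at least 11.8-fold above LPS (log2 3.56) and at least 11.2-fold above CRL1506 + LPS. The bound ranged from 2.39 to 3.86 on the log2 scale over the 6 treatments of the signals, always past 2-fold.

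*Slc1a4* encodes ASCT1, an exchanger of alanine, serine, cysteine and threonine. Its level was 2.88 with LPS, 4.24 with CRL1505 + LPS and 2.64 with CRL1506 + LPS. The CRL1505 + LPS array was thus alone in being high, 2.56-fold above LPS (log2 1.36, software standard error 0.20) and 3.02-fold above CRL1506 + LPS, while CRL1506 + LPS differed from LPS by -0.24. Against LPS the log2 ratio fell to 0.89 with spike-in scaling and stayed past 2-fold under the other 4 alternative treatments of the signals. The gene has 1 probe on the array.

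The other carriers of this group lay closer together. *Slc1a5*, encoding the glutamine exchanger ASCT2, read 2.78, 2.81 and 3.16 in the order LPS, CRL1505 + LPS and CRL1506 + LPS. *Slc38a2*, encoding the stress-responsive system A carrier SNAT2, read 4.03, 3.94 and 3.77 in that order by its brightest probe. That probe gave log2 ratios of -0.09 with CRL1505 and -0.27 with CRL1506, whereas a second, dimmer one gave 0.13 and 0.77. Neither gene reached 2-fold, and over the whole list 2 of 5 compared carriers were higher with CRL1505 (1 with spike-in scaling) and 0 of 4 with CRL1506. Of all genes compared, 9.92% and 5.67% were higher. *Slc38a1*, the related SNAT1, read 5.40, 5.81 and 5.85 by its brightest probe, which gave log2 ratios of 0.42 and 0.46. Its 4 probes gave 0.42 to 1.32 with CRL1505 and 0.37 to 2.44 with CRL1506, all above 0, with the high end in both from 1 dim probe.

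Lysosomal and endosomal carriers are described next. *Slc36a1* encodes PAT1, which moves small amino acids with protons out of the lysosome. It read -1.63 with LPS, 0.17 with CRL1505 + LPS and -1.49 with CRL1506 + LPS (probe at mm9 chr11:55049533-55049592). CRL1505 + LPS was 3.48-fold above LPS (log2 1.80, software standard error 0.21) and 3.16-fold above CRL1506 + LPS, whereas the LPS and CRL1506 + LPS arrays differed by 0.14. The ratio to LPS was 1.31 to 2.09 over the 6 treatments of the signals. A second, dim probe of *Slc36a1* did not show it, with -4.18 with LPS and -4.23, not above background, with CRL1505 + LPS, and the mean over both probes was under 2-fold. Of the 20 spots nearest to the brighter probe, 7 on the LPS array and 5 on the CRL1505 + LPS array were uneven (mean pixel signal clearly above the median), although the spot itself was not, and their part in the result was not tested.

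*Slc38a7* encodes SNAT7, which exports glutamine from lysosomes. Its levels of -0.64, 0.38 and -0.33 (LPS, CRL1505 + LPS, CRL1506 + LPS) put CRL1505 + LPS 2.03-fold above LPS, at the edge of the threshold, and under 4 of 5 alternative treatments of the signals it lay below it. *Slc36a4*, a carrier of proline and tryptophan, went the other way at -0.21, -0.91 and 0.03, under 2-fold.

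*Slc38a9*, the arginine-sensing carrier that signals to mTORC1, was the lysosomal member past 2-fold with CRL1506. It read 4.32 with LPS, 4.61 with CRL1505 + LPS and 5.38 with CRL1506 + LPS by its brightest probe (mm9 chr13:113495110-113495169), 2.08-fold above LPS (log2 1.06, software standard error 0.20). Its second probe, also detected on every array, read 0.10, 0.57 and 0.30 and gave a log2 ratio of only 0.19, so the probes of *Slc38a9* disagree about CRL1506. In all, 2 of the 6 lysosomal or endosomal carriers were higher with CRL1505 and 1 of 6 with CRL1506, and none was lower. The shares of all genes were 9.92% and 5.67% higher, and 8.41% and 3.52% lower. With spike-in scaling, *Slc36a4* and *Slc2a8* passed 2-fold in the lower direction with CRL1505, and both with it and with the shift to the median *Slc38a9* lay below 2-fold with CRL1506.

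The hexose carriers of these compartments did not pass 2-fold. *Slc2a6*, encoding the lysosomal GLUT6, read 6.79, 6.85 and 6.07, with log2 ratios of 0.06 and -0.72. Its second probe gave -0.13 and -0.76, but another, dim one gave 0.93 with CRL1506. *Slc2a8*, encoding GLUT8, read -2.25, -2.99 and -2.57.

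Among carriers of large neutral, aromatic and dibasic amino acids, 1 of 7 compared members was lower with CRL1505 and 0 of 8 with CRL1506, beside 8.41% and 3.52% of all genes. None was higher, and with the shift to the median none was lower. The lower member was *Slc43a2*, encoding LAT4, a sodium-independent carrier of leucine, phenylalanine and methionine. It read 2.99 with LPS, 1.79 with CRL1505 + LPS and 2.44 with CRL1506 + LPS, so LPS was highest and CRL1505 + LPS lowest. The ratio to LPS was -1.20 with CRL1505 (2.29-fold lower, software standard error 0.20) and -0.55 with CRL1506. A second probe gave -0.63 and 0.06, in the same direction with CRL1505 but under 2-fold, and over the 6 treatments of the signals the value of the brightest probe was -1.66 to -0.90.

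*Slc3a2*, the heavy chain CD98 with which the Slc7 light chains pair, read 6.15, 6.28 and 6.17 and was nearly level on the 3 arrays. The light chain *Slc7a5* (LAT1) read -2.11, -2.48 and -1.97. Neither these nor *Slc7a6* (1.46, 1.55 and 1.62) or *Slc7a7* (2.31, 2.65 and 2.10), which pair with CD98 to exchange dibasic for neutral amino acids, differed 2-fold. *Slc7a8* (LAT2) read 4.11, 3.98 and 3.39, so that CRL1506 + LPS was lowest with -0.72, although its second probe gave -0.01. *Slc16a10*, the aromatic amino acid carrier TAT1, read 2.81, 2.79 and 2.48, and its 3 probes spread from -1.06 to -0.02 with CRL1505.

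By its brightest probe *Slc43a3*, a carrier of purine nucleobases, was above LPS with both strains and under 2-fold, reading 1.85, 2.51 and 2.62 (log2 ratios 0.65 and 0.76). Its second, dim probe read -3.47 with LPS and -2.45 with CRL1506 + LPS, a log2 ratio of 1.02. With CRL1505 + LPS that probe was not above background at -5.26, so the probes of *Slc43a3* disagree about CRL1505. *Slc7a10*, the asc-1 carrier of glycine and serine, read -2.39, -1.33 and -1.57. It was 2.09-fold above LPS with CRL1505 (log2 1.06) and 0.82 above it with CRL1506, and with CRL1505 it was past 2-fold under 2 of 5 alternative treatments. Its second probe was not above background on any array, and 6 of the 20 spots nearest to its brighter probe were uneven on the CRL1506 + LPS array.

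**Figure D3:**
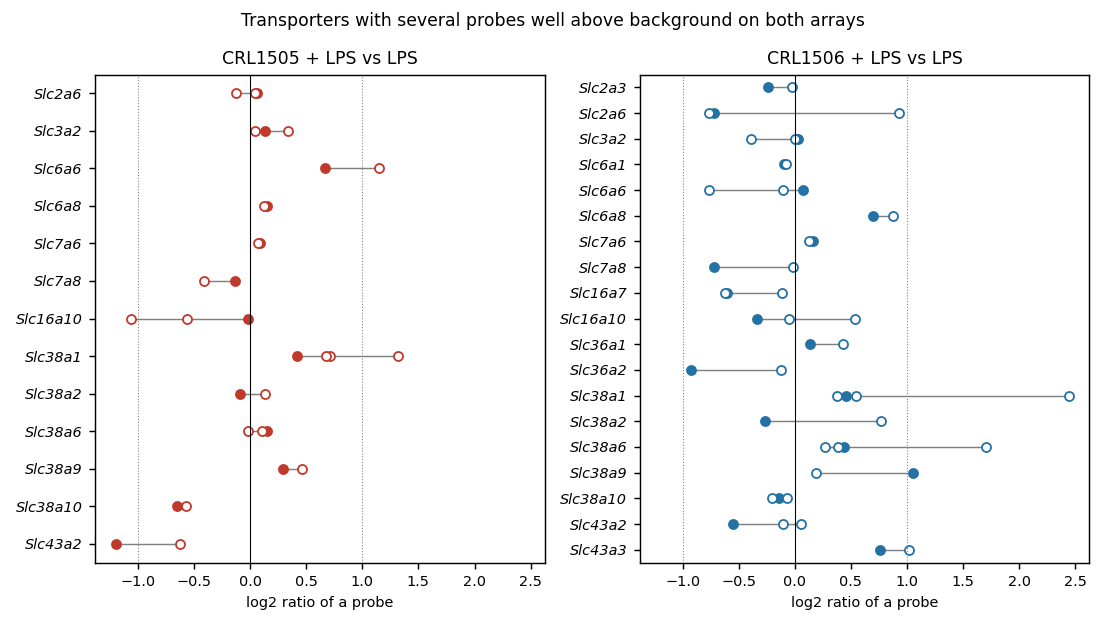
Log2 ratio to LPS of each probe (horizontal axis) for the members with several probes detected on both arrays, 13 with CRL1505 + LPS and 19 with CRL1506 + LPS. Filled circles are the brightest probe, which represents the gene, and lines join the probes of a gene. Probes of 3 of the 13 and 6 of the 19 members fall on both sides of 0, and those of *Slc38a9* lie at 0.19 and 1.06 with CRL1506.

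The osmolyte carriers bring in taurine, betaine, inositol and small amino acids when cells are exposed to hypertonic medium. Of the 4 listed (*Slc6a6*, *Slc6a12*, *Slc5a3* and *Slc38a2*), 2 were at least 2-fold higher with CRL1506 and 0 with CRL1505. Among all genes compared, 5.67% and 9.92% were higher, and a list of 4 is too short for a share to set beside them. The count with CRL1506 was 1 under spike-in scaling and 0 under the other 4 alternative treatments of the signals, and with CRL1505 it was 1 under the shift to the median. *Slc6a12*, the betaine and GABA carrier BGT1, read -2.01 with LPS, -1.22 with CRL1505 + LPS and -0.93 with CRL1506 + LPS. Both strains were above LPS, by 1.73-fold and 2.11-fold, and the CRL1506 value passed the threshold under none of 5 alternative treatments, with log2 ratios down to 0.82. *Slc5a3*, the inositol carrier SMIT1, read -3.80 with LPS and -2.70 with CRL1506 + LPS (2.15-fold, log2 1.11), and at -4.14 with CRL1505 + LPS it was not above background. Its second probe was not above background on any array. *Slc6a6*, the taurine carrier, read 3.57, 4.24 and 3.64 (log2 ratios 0.67 and 0.07), and its second probe gave 1.15 and -0.10. By these probes the CRL1505 + LPS array was highest, but a dim one read -3.48 with LPS, -4.24 with CRL1506 + LPS and -4.57, not above background, with CRL1505 + LPS.

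*Nfat5*, the transcription factor of the osmotic response and no member itself, was 2.27-fold above LPS with CRL1505 and 6.31-fold with CRL1506 by its brightest probe. Its 4 measured probes gave log2 ratios of 0.36 to 1.19 and of 0.66 to 2.66, all above 0 but far apart in size. *Akr1b3*, the other gene listed for the osmotic response, was nearly level, with log2 ratios of 0.06 with CRL1505 and -0.18 with CRL1506. A link of either gene to the osmolyte carriers was not tested.

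High-affinity glutamate uptake was represented by *Slc1a1* (EAAT3) alone. It read -3.65 with LPS and -2.48 with CRL1506 + LPS, which is 2.25-fold higher (log2 1.17, software standard error 0.29). With CRL1505 + LPS it was not above background at -4.28. Over the treatments of the signals the CRL1506 ratio ranged down to 0.44, as that of *Slc5a3* did to 0.42. The second probe of *Slc1a1* was not above background on any array. With the mean over probes, neither *Slc1a1* nor *Slc5a3* passed 2-fold with CRL1506. The creatine carrier *Slc6a8* read 2.72, 2.87 and 3.41, and with CRL1506 its probes gave 0.69 and 0.88, both under 2-fold. *Slc5a6*, which takes up biotin and pantothenate, read 0.22, -0.04 and 0.29.

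A pair of Slc6 members passed 2-fold on spots that were uneven. *Slc6a18*, encoding a kidney carrier of neutral amino acids, was detected on the LPS array alone (-2.53, against -6.43 with CRL1505 + LPS and -6.26 with CRL1506 + LPS), which put it at least 3.02-fold and at least 3.65-fold lower. Thus *Slc6a18* passed 2-fold with each strain, both times against the same spot on the LPS array. Its spot on the LPS array was uneven, its second probe was not above background on any array, and without uneven spots both values were lost. *Slc6a3*, the dopamine carrier, was detected on the CRL1505 + LPS array alone (-2.96, against -6.81 with LPS and -6.72 with CRL1506 + LPS), at least 2.86-fold above LPS, again on an uneven spot and lost without it.

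The sugar carriers of the Slc2 family had no member counted against LPS with either strain, of 6 compared with CRL1505 and 8 with CRL1506. With CRL1505, 3 were lower under spike-in scaling. With the mean over probes *Slc2a12* passed 2-fold in the higher direction, although its brightest probe gave a log2 ratio of -0.18. Another of its probes was detected with CRL1505 + LPS alone, at -1.29. Without a filter on dim probes *Slc2a5* passed 2-fold in the lower direction. Both genes are named here after their values were seen. *Slc2a3*, the high-affinity glucose carrier GLUT3, read 1.94, 1.72 and 1.70. *Slc2a9*, a carrier of urate, read -1.24, -2.17 and -1.30 and was 1.89-fold below LPS with CRL1505 (log2 -0.92), the value ranging from -1.39 to -0.60 over the treatments of the signals. *Slc2a4*, the insulin-regulated GLUT4, was detected at -2.98 with LPS and -2.72 with CRL1506 + LPS, and at -3.87 with CRL1505 + LPS it was not above background (at least 1.86-fold below LPS).

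In the monocarboxylate family, no member was counted as lower with either strain, of 9 compared with CRL1505 and 8 with CRL1506, some of them as bounds. Under spike-in scaling 5 were lower with CRL1505, and under the shift to the median or quantile normalization 2 were lower with CRL1506. *Slc16a9*, a carrier linked to carnitine, was detected with CRL1505 + LPS alone, at -3.24 against -6.61 with LPS and -6.21 with CRL1506 + LPS, which is at least 2.36-fold above LPS, and its second probe was not above background. Its log2 ratio ranged down to 0.78 over the treatments of the signals.

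The other named monocarboxylate carriers were not counted as different. *Slc16a6*, encoding MCT7, read 1.65, 1.45 and 2.21. *Slc16a7*, the pyruvate and lactate carrier MCT2, read -3.23 with LPS and -3.83 with CRL1506 + LPS, and at -4.44 it was not above background with CRL1505 + LPS (at least 1.86-fold lower). *Slc16a13*, a lactate carrier, read -0.17, -0.84 and -0.16 (log2 ratios -0.67 and 0.01), so that CRL1505 + LPS was the low array.

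**Figure D4:**
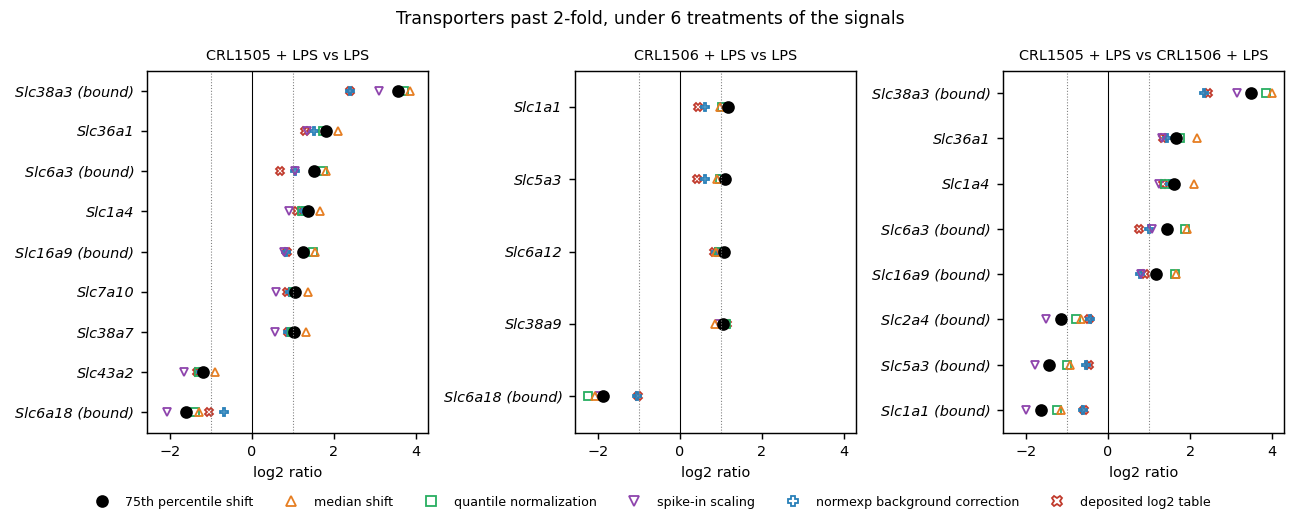
Log2 ratio (horizontal axis) of members past 2-fold in each of the 3 comparisons, under the 75th percentile shift (filled) and 5 other treatments of the signals (open or crossed). Dotted lines mark 2-fold and bounds are marked as such. *Slc38a3* and *Slc36a1* stay past 2-fold under all 6 in both panels that hold them, and no point lies across 0 from its filled one.

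Set directly against each other, the strains differed at least 2-fold in 9 of 50 compared members. CRL1505 + LPS was higher for 5 of them (10%), against 9.02% of all genes, and lower for 4 (8.00%), against 7.46%. The 5 were *Slc38a3*, *Slc36a1*, *Slc1a4*, *Slc6a3* (at least 2.70-fold) and *Slc16a9* (at least 2.24-fold). The 4 included *Slc1a1* (at least 3.13-fold), *Slc5a3* (at least 2.69-fold) and *Slc2a4* (at least 2.23-fold), and all 4 were bounds, from probes that the dimmer CRL1505 + LPS array did not detect. That array had the lowest 75th percentile signal (517.0, against 743.1 with LPS and 697.9 with CRL1506 + LPS) and the fewest spots well above background (48.5%, against 54.5% and 55.3%). With normexp background correction none of the 4 passed 2-fold, whereas *Slc38a3*, *Slc36a1* and *Slc1a4* passed it under all 5 alternative treatments. The comparison shares its arrays with those against LPS and adds no independent measurement.

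The 6 carriers left out by name and the partners of the members are given for context. Of the 6, by the brightest probe of each, 2 were higher and 1 was lower with CRL1505, and none passed 2-fold with CRL1506. The 3 measured probes of *Slc7a11* gave log2 ratios of -0.07 to 1.34 with CRL1506. The arginine carrier *Slc7a2* was 5.01-fold above LPS with CRL1505. Of 29 compared partner genes (chaperones, hexokinases, enzymes of glutamine and lactate, the mTORC1 sensing complex and the osmotic response), 4 were higher and 2 lower with CRL1505, and 2 higher and 1 lower with CRL1506. In that order these partner shares were 13.8%, 6.90%, 6.90% and 3.45%, against 9.92%, 8.41%, 5.67% and 3.52% of all genes compared. *Sesn1*, of the sestrin family that restrains mTORC1, was 5.04-fold lower with CRL1505 and 2.39-fold lower with CRL1506, by 1 probe. The hexokinase *Hk2*, which traps glucose in the cell, was 3.12-fold higher with CRL1505.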

How the data were processed

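RNA of RAW macrophages was hybridised in 1 colour (Cy3) to SurePrint G3 Mouse GE arrays with probes of 60 bases. For each of 3 arrays, the authors deposited the spot intensity given by Feature Extraction (the files carry version 12.0.3.1), background-subtracted and not normalized between arrays. A table of log2 values, normalized between arrays, was deposited too, whose settings are not given in the sources used here.

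Here, the 75th percentile over the gene spots of an array was subtracted from its log2 processed signals. Spots marked as outliers were left out (467, 241 and 274 for LPS, CRL1505 + LPS and CRL1506 + LPS), and none was saturated. The brightest probe represented a gene. Without replicates, the study's t-test had no basis here. An uneven spot had a mean pixel signal over the median by more than 0.2 (log2). The SD over repeated spots of a probe was 0.041 to 0.046 (log2), which describes 1 hybridisation, and the number of arrays limits the precision.

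Alternatives were a shift to the median, quantile normalization, spike-in scaling, normexp (offset 50) with the 75th percentile shift, the deposited log2 table, other filters on probes and spots, the mean over probes, and thresholds of 1.5-fold and 4-fold. The members, lists, rule for named genes and alternatives were chosen with earlier results of these data known. Named were, for each comparison, up to 10 members with the largest rise and up to 10 with the largest fall past 2-fold, the brightest member of each of 10 families, and 27 set by name. The values of 1 member are not reported here, though it is part of the counts. Further lists held osmolyte, lysosomal, large neutral, glutamine and serine, and glutamate carriers, partner genes, and cell type markers. RefSeq promoters were matched by symbol. Python 3.11.15 with pandas 2.3.3, NumPy 2.4.6 and matplotlib 3.10.9 served for all steps, apart from quantile normalization and normexp in limma 3.58.1 (R 4.3.3). The procedure was tested on simulated data. Positions of probes were read from the files (mm9), and those of promoters from RefSeq (GRCm38.p6).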

Additional observations from a re-analysis of the deposited data

Results flagged for a closer look

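For 3 members the log2 ratios of the strains to LPS had opposite signs, with at least 1 of them past 2-fold. The log2 ratio of *Slc1a4* was 1.36 with CRL1505 and -0.24 with CRL1506. That of *Slc1a1* was at most -0.48 with CRL1505, as a bound from a probe not above background, and 1.17 with CRL1506. That of *Slc5a3* was at most -0.32 with CRL1505, also as a bound, and 1.11 with CRL1506. Over the treatments of the signals these bounds shrank to -0.01 for *Slc1a1* and -0.03 for *Slc5a3*. For *Slc5a3*, only 4 of the 5 alternative treatments gave a bound. The -0.24 of *Slc1a4* was close in size to the median SD between probes (0.21). With 1 array per condition, the difference between the strains was not tested for any of them.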

How the results depend on the processing

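In the order higher and lower with CRL1505, higher and lower with CRL1506, then higher and lower with CRL1505 + LPS against CRL1506 + LPS, the counts of members past 2-fold were 7, 2, 5, 1, 5 and 4. They were 8, 1, 1, 4, 12 and 1 after a shift to the median, 6, 2, 3, 4, 6 and 3 after quantile normalization, 3, 14, 3, 3, 4 and 10 after spike-in scaling, 4, 1, 1, 1, 3 and 0 with normexp, and 3, 2, 1, 1, 3 and 1 in the deposited table. They were 9, 12, 11, 3, 6 and 15 without a filter on dim probes, 4, 1, 2, 0, 2 and 0 for probes well above background on all arrays, and 5, 1, 2, 0, 4 and 2 for the mean over probes. They were 7, 2, 6, 1, 5 and 5 with outlier spots kept and 6, 2, 5, 0, 4 and 5 without uneven spots. Thresholds of 1.5-fold and 4-fold gave 10, 13, 11, 9, 10 and 11, and 1, 0, 0, 0, 1 and 0. The share of higher members among those past 2-fold with CRL1505 was 77.8%, and 88.9% after the shift to the median, 17.6% after spike-in scaling and 60% in the deposited table. With CRL1506 it was 83.3%, and 20%, 50% and 50% in that order, and 42.9% after quantile normalization and 50% with normexp. Between the strains it was 55.6%, and 92.3%, 28.6% and 75% in the first order, and 66.7% and 100% in the second. The share moved over all genes too. In the order 75th percentile shift, shift to the median, spike-in scaling and deposited table it was 54.1%, 76.1%, 22.5% and 56.0% with CRL1505, 61.7%, 43.5%, 53.1% and 59.0% with CRL1506, and 54.7%, 89.0%, 25.7% and 61.5% between the strains.

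No ratio past 2-fold changed sign under another treatment of the signals. Of the 9 members past 2-fold with CRL1505, 5 were also past it with normexp and 5 in the deposited table, and *Slc38a3*, *Slc36a1*, *Slc1a4* and *Slc43a2* were among both. Of the 6 with CRL1506, 2 were past it in each, *Slc38a9* and *Slc6a18*. The cause of these differences was not tested. No paired analysis was possible because each condition had 1 array, and for the same reason none was left out. Signal over background limits *Slc38a3*, *Slc6a3*, *Slc6a18* and *Slc16a9* to bounds.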
